A study of Mus musculus with 21 samples.

Results

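Type IV collagen is the network-forming collagen of basement membranes, and its chains are encoded by 6 genes, Col4a1 to Col4a6. The 6 genes were taken as the whole gene family, by name and with no threshold on a value, from the 35598 genes of the deposited tables, and all 6 were among the 13898 genes that passed the filter on low counts. RNA was measured in kidney glomeruli cut by laser from frozen sections of 21 female mice aged 3 months, with 1 library per mouse, by 3' tag RNA-seq (QuantSeq FWD), which sequences the end of polyadenylated transcripts. The mice received decomplemented nephrotoxic serum, an antibody preparation that causes glomerulonephritis, into a vein on 2 consecutive days, or PBS. The study asked what podocyte Epac1, a cyclic AMP sensor encoded by Rapgef3, does during the disease. Mice called cKO carried 2 floxed Epac1 alleles (Epac1fl/fl) and a Cre recombinase under a podocyte promoter, and their littermates, called flox, carried the same floxed alleles without that Cre. The groups were cKO PBS (n = 3), flox PBS (n = 3), cKO day 4 (n = 4), flox day 4 (n = 3), cKO day 11 (n = 4) and flox day 11 (n = 4). The Cre acts in podocytes, so the other glomerular cells of cKO mice may keep Epac1, and every group carried the floxed alleles.

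Libraries held 4550550 to 24295712 reads, and 7871 to 13006 genes had at least 1 read. The ribosomal RNA entry CT010467.1 took 14.9% to 39.5% of the reads of a library, with the highest share in cKO day 11 replicate 4. The library of cKO day 4 replicate 3 had the fewest genes and that of cKO day 11 replicate 3 the fewest reads, and results that change without them are given below. Rapgef3 ran from 63.4 to 199.5 CPM (counts scaled to library size) in cKO libraries and from 124 to 347 CPM in flox libraries, which differed by −0.68 ± 0.25 on the log2 scale (SE, adjusted p = 0.55), and a 3' tag may lie outside the deleted part of the gene. All 13 podocyte markers, all 10 endothelial markers and all 10 mesangial markers had reads in every group. A list of 12 proximal tubule markers also had reads in every group, with a summed level of 559.8 to 6463 CPM per library.

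The chains assemble into triple helices of fixed makeup. A trimer of α1, α1 and α2 is found in nearly all basement membranes, in the glomerulus in the mesangial matrix and on the endothelial side of the capillary wall. A trimer of α3, α4 and α5 forms the main network of the mature glomerular basement membrane, where podocytes make it, and loss of any of its chains causes Alport syndrome. A trimer of α5, α5 and α6 is found in Bowman's capsule. The genes lie as head-to-head pairs, each pair transcribed in opposite directions from neighbouring start sites.

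In the GENCODE M21 annotation of GRCm38, Col4a1 (chr8:11198423-11312826, minus strand) and Col4a2 (chr8:11312805-11449287, plus strand) overlapped by 22 bases at their starts. Col4a4 (chr1:82448423-82586849, minus strand) and Col4a3 (chr1:82586921-82722059, plus strand) started with 71 bases between them. Col4a6 (chrX:141165403-141474076, minus strand) and Col4a5 (chrX:141475385-141689234, plus strand) lay 1308 bases apart. RefSeq promoter windows of 300 bases (250 before and 50 after the start, GRCm38.p6) matched 5 of the 6 chains, Col4a3 being the other. Shown first are the windows of the Col4a1 and Col4a2 pair, since these 2 genes were called together after serum, and then that of Col4a4, a chain of the other network that was not. Capitals mark the GC box GGGCGG and the CCAAT box on either strand.
Col4a1, chr8:11312777-11313076, minus strand: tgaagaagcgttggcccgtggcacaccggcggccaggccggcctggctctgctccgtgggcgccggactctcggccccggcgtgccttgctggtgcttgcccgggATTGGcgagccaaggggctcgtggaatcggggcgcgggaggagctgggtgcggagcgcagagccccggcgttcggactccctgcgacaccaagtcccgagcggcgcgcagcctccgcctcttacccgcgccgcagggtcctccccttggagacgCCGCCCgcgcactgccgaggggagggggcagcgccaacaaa
Col4a2, chr8:11312555-11312854, plus strand: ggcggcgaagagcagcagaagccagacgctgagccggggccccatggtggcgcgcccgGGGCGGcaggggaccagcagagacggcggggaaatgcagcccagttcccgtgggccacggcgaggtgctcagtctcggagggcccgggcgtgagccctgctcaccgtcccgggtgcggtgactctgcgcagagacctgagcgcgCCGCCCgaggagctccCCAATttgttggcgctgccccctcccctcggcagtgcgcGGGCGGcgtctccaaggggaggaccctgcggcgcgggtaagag
Col4a4, chr1:82586800-82587099, minus strand: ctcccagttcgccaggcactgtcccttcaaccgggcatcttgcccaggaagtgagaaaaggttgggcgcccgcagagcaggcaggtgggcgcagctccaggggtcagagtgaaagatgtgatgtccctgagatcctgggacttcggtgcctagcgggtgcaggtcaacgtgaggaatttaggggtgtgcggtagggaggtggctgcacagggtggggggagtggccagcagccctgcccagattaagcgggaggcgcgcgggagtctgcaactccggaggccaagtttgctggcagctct
The Col4a1 window held 1 GC box and 1 CCAAT box, and the Col4a2 window held 3 GC boxes and 1 CCAAT box. These windows share 78 bases, which contain 1 GC box counted in both. The Col4a4 window held 0 of either. Of the windows not shown, that of Col4a5 held 1 GC box and 1 CCAAT box, and that of Col4a6 held 1 GC box and 0 CCAAT boxes. Neither of these chains was called, but changes in these low chains were not detectable unless large. Whether the boxes go with the calls was not tested. Of the 32851 windows of the same length, 35.7% held GGGCGG and 37.4% held CCAAT. The letters TATAAA were in 0 of the 5 chain windows and in 13.6% of all windows, and another motif searched on both strands, TAATTA, was in 0 of the 5 and in 5.29% of all. The share of G and C was 74.0% for Col4a1, 73.7% for Col4a2, 63.3% for Col4a4, 52.7% for Col4a5 and 48.3% for Col4a6. The median over all windows was 52.7%. A match of letters is a description and not evidence of binding.

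On day 11 of nephritis, Col4a1 and Col4a2, the chains of the widespread network, were higher than under PBS when the genotypes were averaged. Col4a1 rose by 1.35 ± 0.19 on the log2 scale (SE, adjusted p = 0.00023) and Col4a2 by 1.17 ± 0.24 (adjusted p = 0.032), both by edgeR's quasi-likelihood test with Benjamini-Hochberg adjustment over all 13898 genes. Thus 2 of the 6 chains were called, where 0.122% of all tested genes (17 genes) were. The chains were chosen with earlier results of these data known, so this count is a description. Col4a3, Col4a4 and Col4a5, the chains of the glomerular basement membrane network, and Col4a6 did not pass.

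In cKO glomeruli, Col4a1 stood at 444, 337 and 245 CPM under PBS, at 665, 634, 331 and 494 CPM on day 4 and at 982, 1366, 1154 and 1121 CPM on day 11. In flox glomeruli, it stood at 380.0, 418 and 547 CPM under PBS, at 716, 734 and 837 CPM on day 4 and at 777, 740.0, 775 and 1167 CPM on day 11. Every day 11 library of either genotype lay above every PBS library, and on day 4 this held in flox but not in cKO, where replicates 3 and 4 lay below the highest PBS library. Within cKO, Col4a1 rose by 1.76 ± 0.27 at day 11 over PBS (SE, 95% interval 1.20 to 2.31, adjusted p = 0.0016), at rank 3 in order of p among all genes. Of the 6 chains it was the 1 called there, where 0.0504% of genes were. Within flox, the log2 fold change at day 11 was 0.95 ± 0.26 (95% interval 0.41 to 1.49, adjusted p = 0.58). No gene of the 13898 was called by edgeR in that comparison (0%), 2 of the 6 chains, Col4a1 and Col4a2, had an unadjusted p under 0.05 against 8.25% of all genes, and DESeq2 called 1 chain and 1136 genes and voom 0 chains and 26 genes.

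Col4a2 stood at 451, 334 and 196 CPM in cKO PBS, at 568, 1124, 441 and 721 CPM in cKO day 4 and at 845, 881, 673 and 747 CPM in cKO day 11 glomeruli. In flox glomeruli it stood at 519, 155.2 and 461 CPM under PBS, at 569, 646 and 511 CPM on day 4 and at 816, 594, 843 and 928 CPM on day 11. As for Col4a1, the day 11 libraries of each genotype did not overlap its PBS libraries, while the day 4 libraries did. The log2 fold change at day 11 was 1.27 ± 0.34 within cKO (SE, adjusted p = 0.63) and 1.07 ± 0.34 within flox (adjusted p = 0.58), and flox PBS replicate 2, at 155.2 CPM, moved the flox value to 0.70 when left out. Non-overlap towards higher values was met by 2 of the 6 chains, Col4a1 and Col4a2, in each genotype at day 11, against 2.75% of all genes in cKO and 3.86% in flox. The call of Col4a2 averaged over genotypes ended without any 1 of 8 libraries, with adjusted p up to 0.13 (cKO PBS replicate 3), whereas the 2 calls of Col4a1 were kept without each library in turn.

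**Figure D1:**
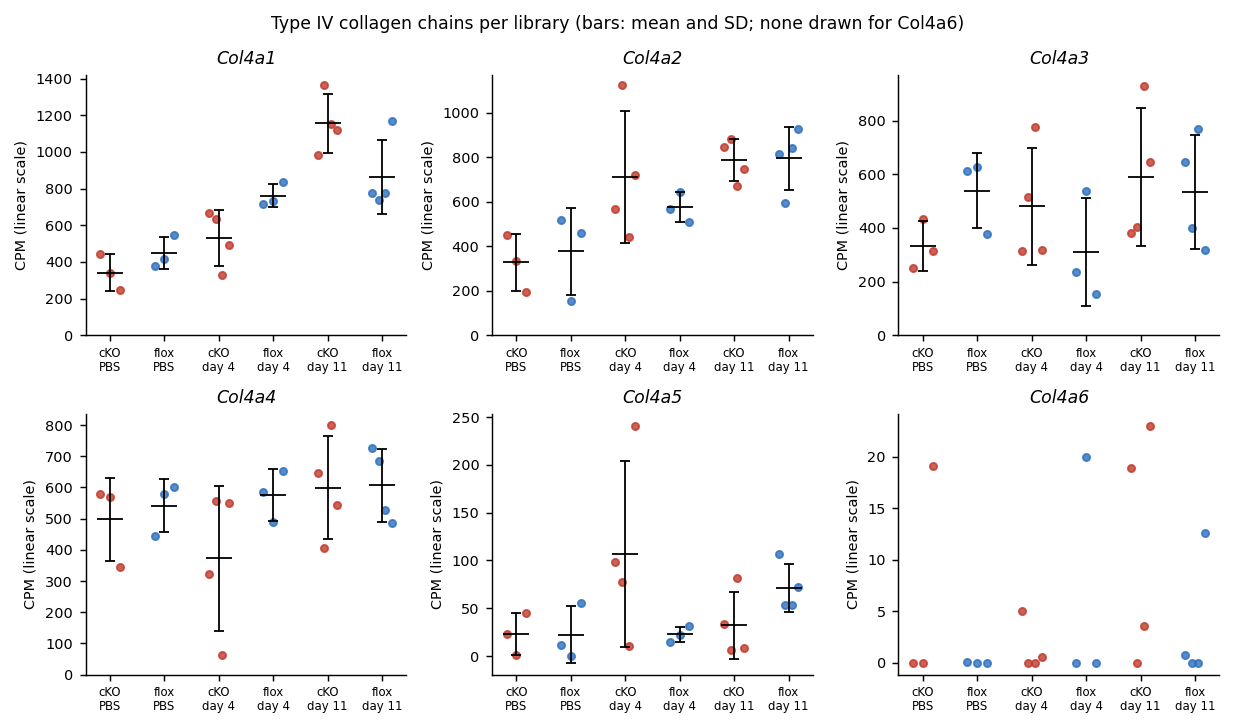
CPM of each chain per library on a linear axis, by genotype and stage, with cKO in red and flox in blue and bars for the mean and SD. Col4a1 at day 11 runs from 982 to 1366 CPM in cKO and from 740.0 to 1167 CPM in flox, above every PBS library, while Col4a3 and Col4a4 overlap PBS in each panel.

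On day 4 none of the chains was called. Averaged over genotypes, the log2 fold change against PBS was 0.70 ± 0.19 for Col4a1 (SE, adjusted p = 0.36) and 0.86 ± 0.25 for Col4a2 (adjusted p = 0.38), where 0.0216% of genes were called. Both had an unadjusted p under 0.05, as did 9.28% of all genes. DESeq2 called both, among 1256 genes called in all, and voom called neither, with 16 genes called in all. Within cKO the value was 0.63 ± 0.26 for Col4a1 and 1.12 ± 0.34 for Col4a2 (adjusted p = 0.60 each), and within flox it was 0.77 ± 0.28 for Col4a1 (adjusted p = 0.59) and 0.60 ± 0.35 for Col4a2 (adjusted p = 0.66). Without flox PBS replicate 2 the flox value of Col4a2 was 0.23. By edgeR no gene was called at day 4 within either genotype (0%). An unadjusted p under 0.05 was found for 2 of the 6 chains in cKO, against 8.16% of genes, and for 1 in flox, against 7.93%. DESeq2 called 1 chain and 793 genes in cKO and 0 chains and 1126 genes in flox. By voom 0 chains were called in both, with 36 genes in cKO and 62 in flox. Non-overlap towards higher values was met by 1 of the 6 chains, Col4a1, in flox, against 6.81% of all genes, and by 0 of the 6 in cKO, against 1.37%. Between the stages, day 11 stood above day 4 by 0.65 ± 0.18 for Col4a1 (adjusted p = 0.38) and by 0.30 ± 0.23 for Col4a2 (adjusted p = 0.90), and no gene was called (0%), with 8.57% of genes at an unadjusted p under 0.05. Of these 2 chains, Col4a1 had such a p there. DESeq2 called 1 chain, Col4a1, and 971 genes between the stages, and voom 0 chains and 11 genes.

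By mean level, Col4a1 was ordered, low to high, as cKO PBS (342 ± 99.6 CPM), flox PBS (448 ± 87.4), cKO day 4 (531 ± 152.7), flox day 4 (762 ± 64.9), flox day 11 (865 ± 202) and cKO day 11 (1156 ± 159) (SD). The steps between flox PBS and cKO day 4 and between flox day 4 and flox day 11 were smaller than the larger SD of the 2 groups. For Col4a2 the order was cKO PBS (327 ± 128 CPM), flox PBS (378 ± 196), flox day 4 (575 ± 67.7), cKO day 4 (713 ± 297), cKO day 11 (787 ± 94.8) and flox day 11 (795 ± 142). Its step between flox PBS and flox day 4 was the 1 that exceeded the larger SD.

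Col4a3, the chain whose C-terminal domain is the target in Goodpasture disease, did not separate the groups. It stood at 249, 435 and 314 CPM in cKO PBS, at 316, 514, 775 and 318 CPM in cKO day 4 and at 383, 403, 931 and 648 CPM in cKO day 11 glomeruli. In flox glomeruli it stood at 611, 627 and 378 CPM under PBS, at 236, 538 and 155.4 CPM on day 4 and at 648, 399, 771 and 316 CPM on day 11. All 4 serum groups overlapped the PBS group of their genotype. Averaged over genotypes, the log2 fold change was −0.13 ± 0.29 at day 4 (SE, 95% interval −0.72 to 0.45) and 0.41 ± 0.28 at day 11 (95% interval −0.17 to 0.98, adjusted p = 0.83). Within cKO it was 0.53 ± 0.40 at day 4 and 0.83 ± 0.40 at day 11, and within flox it was −0.80 ± 0.42 at day 4 and −0.01 ± 0.39 at day 11. By edgeR the cKO day 11 value had a 95% interval of 0.007 to 1.65 and an unadjusted p of 0.048, and it did not pass adjustment (adjusted p = 0.81). The cKO day 4 value was 0.20 without replicate 3 of that group.

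Col4a4, the partner gene of Col4a3 across their shared promoter region, stood at 580.3, 570.0 and 343 CPM in cKO PBS, at 323, 556, 64.3 and 551 CPM in cKO day 4 and at 648, 407, 799.5 and 544 CPM in cKO day 11 glomeruli. In flox glomeruli it stood at 445, 579 and 601 CPM under PBS, at 586, 488 and 654 CPM on day 4 and at 728, 686, 528 and 487 CPM on day 11. Of the 21 libraries 20 lay between 323 and 799.5 CPM, and the exception, cKO day 4 replicate 3, was the library with the fewest genes detected. The log2 fold change averaged over genotypes was −0.16 ± 0.29 at day 4 (SE, 95% interval −0.75 to 0.43) and 0.22 ± 0.28 at day 11 (95% interval −0.36 to 0.79, adjusted p = 1). Without that library the day 4 value was 0.01.

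Col4a5, the X-linked chain shared by the α3α4α5 and α5α5α6 trimers, was low and uneven. It stood at 23.1, 1.08 and 45.5 CPM in cKO PBS, at 98.3, 77.9, 10.5 and 241 CPM in cKO day 4 and at 33.1, 6.16, 81.7 and 7.94 CPM in cKO day 11 glomeruli. In flox glomeruli it stood at 11.4, 0.221 and 56.0 CPM under PBS, at 14.6, 22.3 and 30.9 CPM on day 4 and at 107, 53.5, 53.8 and 71.8 CPM on day 11. The lowest library of all, flox PBS replicate 2, held 4 reads of the gene. The log2 fold change averaged over genotypes was 1.10 ± 0.91 at day 4 (SE, 95% interval −0.76 to 2.96) and 1.07 ± 0.89 at day 11 (95% interval −0.75 to 2.88, adjusted p = 0.97). These intervals hold changes as large as those of Col4a1 and Col4a2 as well as 0, so a change of that size was not detectable. The day 4 value ran from 0.71 without cKO day 4 replicate 4 to 2.08 without flox PBS replicate 3, and the day 11 value from 0.55 without cKO day 11 replicate 3 to 2.05 without flox PBS replicate 3, and without cKO PBS replicate 3 the day 11 value was 1.54.

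Col4a6, the chain of Bowman's capsule, had reads in 10 of the 21 libraries and reached 23.0 CPM at most. In cKO glomeruli it had reads in 1 of 3 PBS, 2 of 4 day 4 and 3 of 4 day 11 libraries, and in flox glomeruli in 1 of 3 PBS, 1 of 3 day 4 and 2 of 4 day 11 libraries. The flox PBS libraries held 1 read in all. A floor of 3 reads over that group would be 0.0545 CPM, which covers counting error only, and no fold change is given for this chain.

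**Figure D2:**
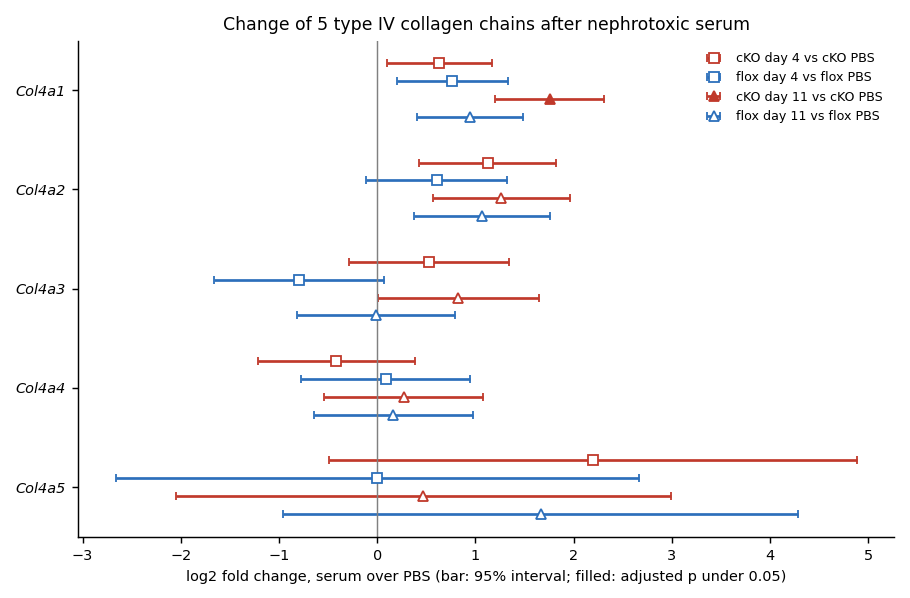
Log2 fold change of serum over PBS for 5 chains within each genotype and stage, with 95% intervals from the edgeR fit, and a filled symbol for adjusted p under 0.05. The filled symbol is Col4a1 in cKO at day 11 (1.76), and the intervals of Col4a5 are the widest.

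None of the chains differed between the genotypes by an adjusted p under 0.05. Averaged over the stages, the log2 difference of cKO against flox was −0.16 ± 0.15 for Col4a1 (SE, 95% interval −0.47 to 0.14), 0.03 ± 0.19 for Col4a2 (−0.36 to 0.42), 0.03 ± 0.23 for Col4a3 (−0.44 to 0.49), −0.26 ± 0.23 for Col4a4 (−0.72 to 0.21) and 0.38 ± 0.71 for Col4a5 (−1.07 to 1.82). By edgeR 0 of the 6 chains were called, against 0.0072% of genes, and 0 had an unadjusted p under 0.05, against 6.62%. DESeq2 and voom also called 0 chains, with 904 genes called by DESeq2 and 3 by voom. Within PBS, day 4 and day 11, edgeR called no gene (0%), and 0 of the 6 chains had an unadjusted p under 0.05. Of all genes 6.02%, 7.42% and 5.86% had such a p, in that order. By DESeq2 and voom 0 chains were called, with 935, 800 and 495 genes by DESeq2 and 41, 8 and 13 by voom. At day 4, Col4a1 was between 331 and 665 CPM in the cKO libraries and between 716 and 837 CPM in the flox libraries, a difference of −0.52 ± 0.26 (95% interval −1.05 to 0.00, adjusted p = 0.67). Non-overlap towards lower values was met there by 1 of the 6 chains, Col4a1, and by 3.37% of all genes. At day 11 its difference was 0.42 ± 0.24 (adjusted p = 1), and under PBS it was −0.39 ± 0.28 (adjusted p = 0.98).

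The change from PBS to day 11 in Col4a1 was 0.81 ± 0.37 larger in cKO than in flox on the log2 scale (SE, 95% interval 0.06 to 1.56, unadjusted p = 0.035), but the interaction did not pass adjustment (adjusted p = 0.68). The change from PBS to day 4 in Col4a3 was 1.33 ± 0.58 larger in cKO than in flox (95% interval 0.14 to 2.52, unadjusted p = 0.030, adjusted p = 0.57), and it was 0.99 without replicate 3 of cKO day 4 and of cKO day 11. No gene of the 13898 was called by edgeR for either interaction (0%). At an unadjusted p under 0.05 there were 6.94% of genes for the day 11 interaction and 7.74% for the day 4 interaction, with 1 chain in each. DESeq2 and voom called 0 chains for both, with 951 genes by DESeq2 and 4 by voom at day 11 and 1113 and 10 at day 4.

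The balance of the networks was set as the mean log2 CPM of Col4a1 and Col4a2 minus that of Col4a3, Col4a4 and Col4a5 in each library. In cKO glomeruli it was 1.43 ± 0.99 under PBS, 1.53 ± 0.60 on day 4 and 2.37 ± 0.96 on day 11, and in flox glomeruli it was 1.69 ± 0.63, 2.14 ± 0.20 and 1.57 ± 0.47 in the same order (SD). The 2 genotypes and 3 stages overlapped throughout. This measure gives the low and uneven Col4a5 the same weight as the abundant chains. With Col4a5 left out, a version chosen after the values were seen, the balance in cKO was −0.31 ± 0.47 under PBS, 0.72 ± 0.18 on day 4 and 0.74 ± 0.58 on day 11, and in flox it was −0.47 ± 0.69, 0.75 ± 0.31 and 0.58 ± 0.56. Day 4 libraries then did not overlap PBS in either genotype. At day 11 the flox libraries (0.21 to 1.41) lay above PBS (−1.24 to 0.08), and the cKO libraries (0.03 to 1.44) overlapped PBS (−0.58 to 0.23) through replicate 3 of cKO day 11, the library with the fewest reads. The values are given without a test.

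**Figure D3:**
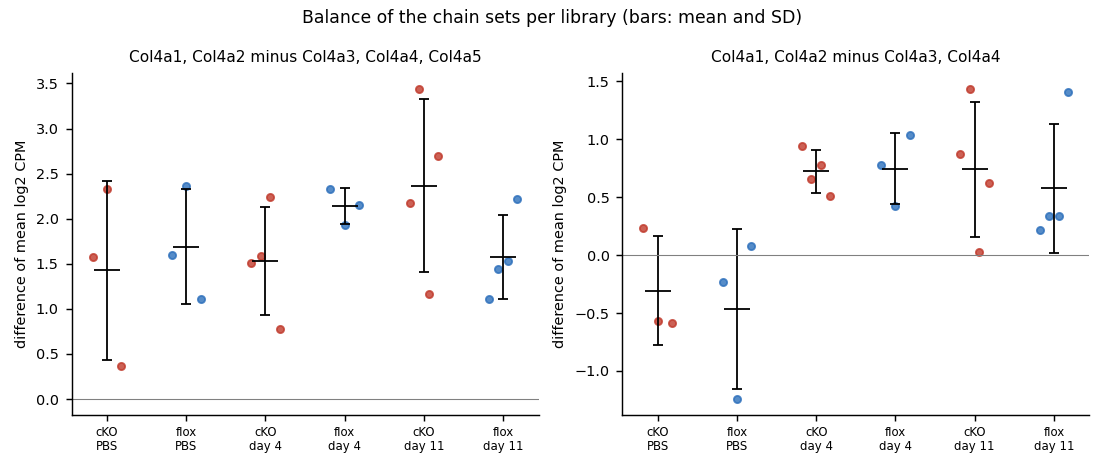
Difference of mean log2 CPM between the chain sets per library, with Col4a5 (left panel) and without it (right panel), by genotype and stage, with bars for the mean and SD. On the left all groups overlap, and on the right 14 of the 15 serum libraries lie above 0.2, while 1 of the 6 PBS libraries does.

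Across the 21 libraries, which share depth and scaling, the log2 CPM of Col4a1 and Col4a2 were correlated at Pearson r = 0.73 (Spearman rho = 0.75), at r = 0.65 without the 2 libraries farthest from the median of Col4a1 and at r = 0.51 after the group means were removed. Col4a3 and Col4a4, also a head-to-head pair, gave r = −0.19 (rho = −0.03), and −0.29 within groups. Col4a5 and Col4a6 gave r = 0.28 (rho = 0.25). All 15 pairs of chains were computed, and the second highest r was that of Col4a2 with Col4a5 (0.58, rho = 0.42). Col4a1 with Col4a4, which are not a head-to-head pair, also gave r = 0.51 after the group means were removed. Their r was 0.41 over all libraries and 0.06 without the 2 libraries farthest from the median of Col4a1. These are descriptions of the libraries, and no p is given.

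**Figure D4:**
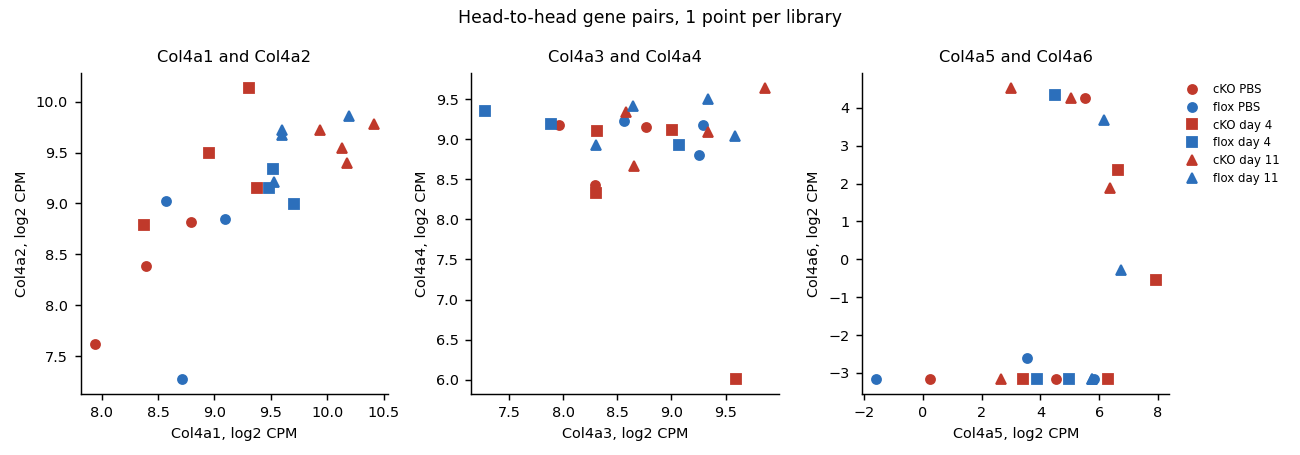
Log2 CPM of the genes of each head-to-head pair, 1 point per library, with colour for genotype and shape for stage. Col4a1 and Col4a2 run together (r = 0.73), Col4a3 and Col4a4 do not (r = −0.19), and 11 libraries lie at the lower limit of Col4a6 because they hold 0 reads of it.

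Per length, in the TPM values deposited by the authors, the median over the 21 libraries was 191 TPM for Col4a1 (50.8 to 366), 184 TPM for Col4a2 (38.7 to 328), 42.2 TPM for Col4a3 (12.1 to 96.1), 45.6 TPM for Col4a4 (4.01 to 70.1), 4.63 TPM for Col4a5 (0.048 to 27.3) and 0 TPM for Col4a6 (0 to 2.52). On this per-length scale the medians of Col4a1 and Col4a2 were the highest and those of Col4a5 and Col4a6 the lowest. A 3' tag is counted at the transcript end whatever its length, so dividing by length lowers the long Col4a3 and Col4a4 transcripts. On this scale Col4a1 averaged 239.6 ± 118 TPM in cKO day 11 and 127 ± 99.5 TPM in cKO PBS glomeruli, and 270.0 ± 79.6 TPM in flox day 11 and 191 ± 41.7 TPM in flox PBS glomeruli (SD). Unlike in CPM, the day 11 and PBS libraries overlapped in both genotypes. In cKO, day 11 replicate 4 stood at 80.4 TPM and PBS replicate 1 at 241 TPM. In flox, day 11 replicate 2 stood at 181 TPM and PBS replicate 3 at 223 TPM.

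Among 3529 other genes whose log2 CPM averaged 5 or more, the 5 most like Col4a1 over the 21 libraries were Sparc (r = 0.91), Csrp1 (0.86), Spp1 (0.83), Actb (0.82) and Ier3 (0.81). Sparc encodes a matricellular protein that binds collagen, Csrp1 a LIM-domain protein of the actin cytoskeleton, Spp1 osteopontin and Actb β-actin. At day 11 over PBS, averaged over genotypes, Sparc rose by 1.22 ± 0.15 (SE, adjusted p = 2.8e-05). Spp1 rose by 2.29 ± 0.33 with an adjusted p of 0.00027, Csrp1 by 1.05 ± 0.18 with an adjusted p of 0.0043, and Actb by 0.78 ± 0.12 with an adjusted p of 0.00041. Ier3 stood at 1.24 ± 0.28 and did not pass (adjusted p = 0.067). The 5 most like Col4a3 were 1700020I14Rik (r = 0.79), Rhoq (0.66), Fubp1 (0.65), Prrc2c (0.65) and Pygb (0.64), and none of these was called in any comparison with PBS. The libraries of 1 group share a treatment, so r over all of them includes the differences between groups. The changes of genes picked by this r therefore follow in part from the choice and are descriptions. Of all genes 0.122% were called at day 11 averaged over genotypes.

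**Figure D5:**
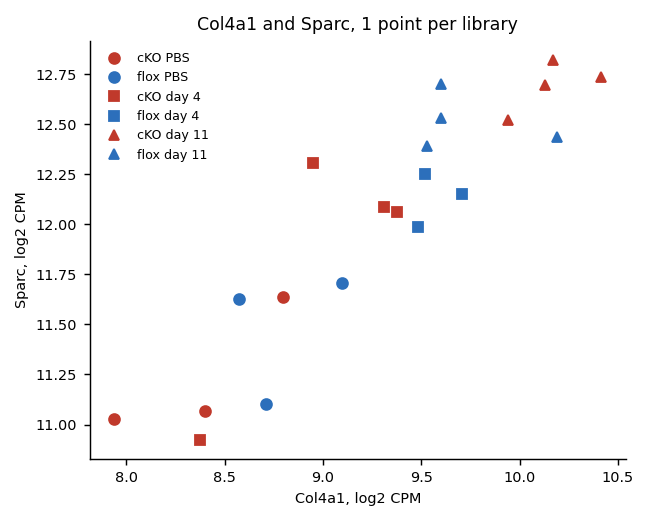
Log2 CPM of Col4a1 and of Sparc, 1 point per library, with colour for genotype and shape for stage. The points follow a line from the PBS libraries and cKO day 4 replicate 3 at the lower left to the day 11 libraries at the upper right (r = 0.91, n = 21).

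The genes that fold, assemble and crosslink type IV collagen gave 1 call among 24 tested, Sparc, at day 11 averaged over genotypes, where 0.122% of all genes were called. Sparc stood at 5873, 6819, 7247 and 6646 CPM in cKO day 11 and at 2087 to 3189.6 CPM in cKO PBS, and at 5372 to 6669.5 CPM in flox day 11 and 2195 to 3343 CPM in flox PBS glomeruli. The day 11 and PBS libraries did not overlap in either genotype, which held towards higher values for 2.75% of all genes in cKO and 3.86% in flox. Of the list, 18 of 24 members had a log2 fold change above 0, against 52.9% of all genes, and the median was 0.44, against 0.07 over all genes. The lists were chosen with earlier results of these data known, so the counts are descriptions.

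None of the 8 receptor genes was called, against 0.122% of all genes. All 8 had a log2 fold change above 0 at day 11 (median 0.32), against 52.9% of all genes (median 0.07). Of the 8, 2 had an unadjusted p under 0.05 towards higher values, as did 6.17% of all genes. Itgb1, the β subunit of the collagen-binding integrins α1β1 and α2β1, averaged 1158 ± 183 CPM in cKO day 11 and 831 ± 154 CPM in cKO PBS, and 1128 ± 80.1 CPM in flox day 11 and 743 ± 102 CPM in flox PBS glomeruli (SD), with a difference of 0.54 ± 0.16 on the log2 scale (SE, adjusted p = 0.31). Itgb3, the β subunit of integrin αVβ3, ran from 0.448 to 34.5 CPM in cKO day 11 and from 0 to 10.3 CPM in cKO PBS, and from 1.25 to 34.1 CPM in flox day 11 libraries, with 0 reads in flox PBS. Itga2, the α2 subunit, stood at 1.20 ± 1.26 (adjusted p = 1).

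Among 11 other basement membrane genes, 0 were called and 0 had an unadjusted p under 0.05 at day 11, against 0.122% of all genes called and 6.17% with such a p towards higher values. Of these 11 genes 8 were above 0, with a median of 0.36, against 52.9% and 0.07 over all genes. Col18a1, which encodes the collagen that gives rise to endostatin, stood at 0.36 ± 0.29 (SE, adjusted p = 0.96), and Nid1, which encodes the nidogen that links laminin to type IV collagen, at 0.37 ± 0.39 (adjusted p = 1). Lama1, a laminin chain of the immature glomerular basement membrane, ran from 0 to 10.9 CPM in cKO day 11 and from 0 to 21.5 CPM in cKO PBS, and from 0 to 65.1 CPM in flox day 11 and from 0 to 0.167 CPM in flox PBS libraries.

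Of 10 genes for the turnover of type IV collagen 9 were tested. None was called, 5 had an unadjusted p under 0.05, all towards higher values, 7 were above 0, and the median was 0.93. Over all genes 0.122% were called, 6.17% had such a p towards higher values and 52.9% were above 0, with a median of 0.07. Timp2, an inhibitor of matrix metalloproteinases, averaged 1841 ± 217 CPM in cKO day 11 and 1149 ± 134 CPM in cKO PBS, and 1995 ± 552 CPM in flox day 11 and 1297 ± 167 CPM in flox PBS glomeruli (SD), with a difference of 0.65 ± 0.15 on the log2 scale (SE, adjusted p = 0.10). Adamts1, a secreted metalloproteinase, stood at 0.93 ± 0.28 (adjusted p = 0.31). Timp1, another such inhibitor, ran from 6.94 to 82.0 CPM in cKO day 11 and from 0 to 24.05 CPM in cKO PBS, and from 0 to 62.8 CPM in flox day 11 libraries, with 0 reads in flox PBS. With the genes that had a group at 0 reads set to a floor of 3 reads over that group, the medians of the receptor and turnover lists were the same, 0.32 and 0.93.

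Of 13 regulators of type IV collagen genes 0 were called at day 11, against 0.122% of all genes. Of the 13, 8 were above 0, against 52.9% of all genes, and the median was 0.04, close to that of all genes (0.07). An unadjusted p under 0.05 towards higher values was found for 1 of the 13, against 6.17% of all genes. Tgfb2, a growth factor of the TGF-β family, averaged 101.4 ± 28.1 CPM in cKO day 11 and 23.5 ± 11.2 CPM in cKO PBS, and 45.8 ± 42.0 CPM in flox day 11 and 33.4 ± 28.9 CPM in flox PBS glomeruli (SD), and the log2 difference averaged over genotypes was 1.28 ± 1.05 (SE, adjusted p = 0.96). Tgfb3, another member, ran from 2.69 to 17.04 CPM in cKO day 11 and from 0 to 0.147 CPM in cKO PBS libraries, and from 0 to 11.7 CPM in flox day 11 and from 0 to 0.718 CPM in flox PBS libraries, and was the 1 member with an unadjusted p under 0.05 (adjusted p = 0.41). Smad4, the shared signal carrier of the TGF-β pathway, stood at 0.80 ± 0.65 (adjusted p = 0.95).

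Levels of cell type markers at day 11 are given beside those of the chains, and in such tissue samples fewer cells of a type and less RNA per cell cannot be told apart. For every marker list below, the values over all genes were 0.122% called, 52.9% above 0 and a median of 0.07. Of 13 podocyte markers 0 were called and 2 were above 0 at day 11 (median −0.56), with summed levels of 4428 to 6526 CPM in cKO day 11 and 7281 to 8237 CPM in cKO PBS, and of 5526 to 7714 CPM in flox day 11 and 5997 to 7836 CPM in flox PBS libraries. Of 10 mesangial and smooth muscle markers 6 were above 0 (median 0.40), with 2377 to 4119 CPM in cKO day 11 and 2124 to 2347 CPM in cKO PBS, and 1725 to 5680 CPM in flox day 11 and 2542 to 3733 CPM in flox PBS. In that list Acta2, smooth muscle actin, rose by 1.39 ± 0.28 (SE, adjusted p = 0.029), the 1 marker of any list that was called. Of 8 fibroblast markers 6 were above 0 (median 1.19), with 1100.2 to 2791 CPM in cKO day 11 and 550.4 to 947 CPM in cKO PBS, and 675 to 1709.7 CPM in flox day 11 and 649 to 1346 CPM in flox PBS, and Postn was at 0 in cKO PBS. Of 10 endothelial markers 4 were above 0 (median −0.21), and of 10 tested macrophage markers 8 were (median 1.17), at a summed 143 to 460 CPM in day 11 and 166 to 390 CPM in PBS libraries, with Adgre1 and Fcgr1 at 0 in cKO day 11, Itgam at 0 in cKO PBS and Cd68, Itgam, Fcgr1 and Cd14 at 0 in flox PBS.

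Of 8 parietal epithelial markers 7 were above 0 (median 1.43), with a summed 120 to 278 CPM in cKO day 11 and 65.3 to 118 CPM in cKO PBS, and 79.0 to 129 CPM in flox day 11 and 14.7 to 111 CPM in flox PBS libraries, and Krt19 was at 0 in cKO day 4 and in both PBS groups. Of 12 proximal tubule markers 1 was above 0 (median −0.38), of 10 distal nephron markers 3 were (median −0.44) and of 6 erythrocyte markers 1 was (median −1.53). With the mean log2 CPM of the podocyte markers as a term in the fit, a step added after the data were seen, the day 11 change averaged over genotypes was 1.53 for Col4a1 (adjusted p = 0.000715) and 1.36 for Col4a2 (adjusted p = 0.068). With the proximal tubule markers as the term it was 1.28 for Col4a1 (adjusted p = 0.000842) and 1.06 for Col4a2 (adjusted p = 0.077). The part of the other cell types in the rise of Col4a1 and Col4a2 was not tested.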

How the data were processed

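Gene-level estimated counts, TPM and lengths were deposited by the authors, 1 table per library. The submitters' processing notes name DRAGEN, fastp, FastQC, Picard and mm10 as build, with no versions or roles, and strand and duplicate handling are not stated there. Of the deposited estimated counts, 95.2% were whole within 0.005, and all were rounded. Gene IDs were paired with GENCODE M21 symbols (35513 of 35598). Counts were scaled by TMM (0.751 to 1.12) to CPM and tested with edgeR 4.0.16 (R 4.3.3), in 1 quasi-likelihood fit of 6 group means with 15 residual degrees of freedom, after a filter at a minimum count of 10, with Benjamini-Hochberg adjustment at 0.05 over 13898 genes. Log2 CPM used a prior count of 2. DESeq2 1.42.0 and limma 3.58.1 were alternatives. The code was tested on simulated data, with 100 genes changed 2-fold and 100 changed 4-fold in cKO day 11. It called 1% of each set against cKO PBS, with 0 false calls. A gene that did not pass may therefore still have changed. Each library is 1 mouse, so p-values measure the spread between these mice. The named genes were the 6 chains, called list members or the 3 of smallest p per list, and the 5 genes most correlated with Col4a1 and with Col4a3. The members and lists were chosen with earlier results of these data known. Intervals are 95%.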

Additional observations from a re-analysis of the deposited data

Results flagged for a closer look

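Of 21 sets of 4 libraries examined, 6 chains and the network balance in each group of 4, 1 showed a library far from the others. Col4a1 in flox day 11 replicate 4 had a log2 CPM of 10.19, while the other 3 libraries of the group lay between 9.53 and 9.60. The gap took 0.893 of the range of the group and exceeded Dixon's 95% critical value. Chance flags about 1 set in 20, so about as many as were found. The library was kept, and without it the Col4a1 calls in cKO and averaged over genotypes at day 11 remained.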

How the results depend on the processing

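The calls of Col4a1 at day 11, in cKO and averaged over genotypes, were kept under every alternative run, with log2 fold changes of 1.57 to 1.99 and 1.26 to 1.47 without each library in turn. The call of Col4a2 averaged over genotypes was not. The number of chains called there, 2, was 1 with a replicate block (Col4a2 log2 fold change 1.17, adjusted p = 0.107), with the proximal tubule term, with the podocyte term, and ran from 1 to 2 without each library in turn (Col4a2 log2 fold change 0.98 to 1.32, adjusted p 0.014 to 0.13). It ended without cKO PBS replicates 2 and 3, flox PBS replicate 2, cKO day 11 replicates 1, 2 and 4, and flox day 11 replicates 3 and 4, each left out alone. The cause was not tested.

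DESeq2 called 1 chain in cKO day 4, 2 in cKO day 11, 1 in flox day 11, 2 at day 4 averaged over genotypes and 1 between the stages, where edgeR called 0, 1, 0, 0 and 0. Among all genes at day 11 averaged over genotypes, edgeR called 17, against 1164 by DESeq2, 90 by voom, 39 with no filter, 37 without the libraries numbered 3 of cKO day 4 and day 11, 27 with the compared groups only, 10 with the block, and 11 with either marker term. Within cKO at day 11 the count of 7 became 640 by DESeq2, 103 by voom, 12 with no filter and 13 without those libraries, and 3 to 10 without each library in turn.

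Several values changed sign, some of them near 0 and others, such as Col4a5 in cKO at day 11, farther from it. Col4a5 in flox at day 4 (0.00) was −0.0291 with median-ratio size factors and with DESeq2, −0.00762 with no filter, −0.0123 with a stricter filter, and −0.0182 with the compared groups only. Col4a3 in flox at day 11 (−0.01) was 0.0497 with the block and 0.000492 with the tubule term. The genotype difference of Col4a3 (0.03) was −0.00023 with the tubule term, −0.0144 with the podocyte term, −0.0452 with voom and −0.18 without the libraries numbered 3 of cKO day 4 and day 11. Col4a4 at day 4 (−0.16) was 0.22 with the podocyte term and 0.0126 without those libraries, and Col4a5 in cKO at day 11 (0.47) was −0.56 without them. Without each library in turn, the genotype difference ran from −0.10 to 0.12 for Col4a2 and from −0.0812 to 0.24 for Col4a3. On that basis the day 4 change averaged over genotypes ran from −0.46 to 0.0079 for Col4a3 and from −0.29 to 0.0125 for Col4a4. Within genotypes the ranges were −0.23 to 0.17 for Col4a3 in flox at day 11, −0.0555 to 0.19 for Col4a4 in flox at day 4, −0.56 to 1.42 for Col4a5 in cKO at day 11 and −0.57 to 1.95 for Col4a5 in flox at day 4. The causes were not tested.

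The change in network balance over PBS was 1.03 in cKO day 4 (0.10 as planned), 1.21 in flox day 4 (0.45) and 1.04 in flox day 11 (−0.12) with Col4a5 left out, and 1.02 in flox day 4 and 0.92 in flox day 11 as a ratio of summed CPM. Leaving out Col4a5, the podocyte term and leaving out both libraries numbered 3 were chosen after seeing the data. Over 48 pairs of libraries with the same number, deviations from group means correlated at −0.084 to 0.063, and over 135 other pairs at −0.129 to 0.107. Pairs with the same number thus did not stand out, but such a check cannot exclude that the numbers pair the mice. With 3 or 4 mice a group, changes in the low chains Col4a5 and Col4a6 were not detectable unless large.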

Other observations

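Relative to podocyte genes, the mean log2 CPM of Col4a3 and Col4a4 minus that of Nphs1, Podxl, Synpo and Wt1, a measure chosen after the values were seen, was −0.84 ± 0.30 in cKO PBS, −0.63 ± 0.61 in cKO day 4 and 0.34 ± 0.38 in cKO day 11 libraries (SD). In flox libraries it was −0.30 ± 0.49 under PBS, −0.46 ± 0.05 on day 4 and 0.19 ± 0.28 on day 11. The day 11 and PBS libraries did not overlap in cKO and overlapped in flox.

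The transcript length deposited for Col4a1 differed between libraries and ran from 2732 to 6615 bases, in cKO PBS alone over that whole range and in flox PBS from 2949 to 3960 bases, and it enters the deposited TPM but not the CPM.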
